A study of Rattus with 4 samples.

Results

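Transcripts of 10 receptor tyrosine kinase genes of mesenchymal cells were followed in RNA precipitated with an antibody to NONO and in input RNA. The genes were Pdgfra, Pdgfrb, Egfr, Fgfr1, Igf1r, Insr, Met, Axl, Ddr2 and Flt1, found by symbol in the deposited table of gene counts. All 10 were among its 13731 listed genes, on chromosomes 14, 18, 14, 16, 1, 12, 4, 1, 13 and 12 in that order, and all are protein-coding. The tables give no finer position, and no sequence of these genes was used here.

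Receptor tyrosine kinases are single-pass membrane proteins that bind a growth factor, pair up and phosphorylate each other on tyrosines, which then recruit adaptor proteins. The signal is passed on mainly through RAS and the MAP kinases, through PI3K and AKT, and through STAT factors, and it is damped by ubiquitin ligases, phosphatases and Sprouty-type inhibitors. In fibroblasts and perivascular cells the PDGF receptors drive migration and growth, and DDR2 is unusual in that its ligand is fibrillar collagen. NONO is a nuclear RNA- and DNA-binding protein of paraspeckles, and RNA immunoprecipitation sequencing (RIP-seq) sequences the RNA that comes down with such a protein.

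There were 2 input libraries, made without an antibody from cells that the cell type label describes as transfected with empty vector. There were 2 anti-NONO libraries (NONO IP), labelled as coming from cells given siRNA against NONO, so that from the labels precipitation and knockdown cannot be told apart. The series holds only these 2 groups, with no control antibody library. The titles name H9C2, a line from embryonic rat heart, while the protocol for growth speaks of a line of rat cardiac fibroblasts, and whether the replicates were separate cultures is not stated, so p-values measure only the spread between these libraries. Which RNAs NONO binds is the question that the series title raises.

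Gene counts summed to between 238776 and 279410 per library, which is shallow: 3 reads equalled 9.26 to 14.5 CPM, reads scaled to a common library total by TMM, edgeR's trimmed mean of M-values. Nono itself was counted 21 and 9 times in input and 3 and 3 times in NONO IP. The fibroblast list held 38144 input reads, mostly on Col1a1 (20647) and Col1a2 (10059), while the fibroblast genes Dcn and Tcf21 held 4 and 5 and Lum and Fap were not among the listed genes. The cardiomyocyte list held 125 input reads, and the skeletal myoblast list 21, with Myod1, Myog, Myf5 and Pax7 not among the listed genes. Of 2920 genes with enough reads for the test, 871 (29.8%) rose and 786 (26.9%) fell between input and NONO IP at an adjusted p under 0.05 by edgeR's quasi-likelihood test, so that 56.7% of all tested genes were called.

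The receptor genes did not move as one. Pdgfra was about 2-fold higher in the NONO IP, Pdgfrb was 2.95-fold lower, Ddr2 and Axl were lower by smaller amounts, and Fgfr1, Igf1r, Insr and Flt1 did not pass the test. Thus 1 of the 8 receptor genes with enough reads rose and 3 fell, a called share of 50% beside the 56.7% of all tested genes. Their median log2 fold change was −0.34, against 0.02 over all tested genes. Egfr and Met had too few reads to be tested.

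**Figure D1:**
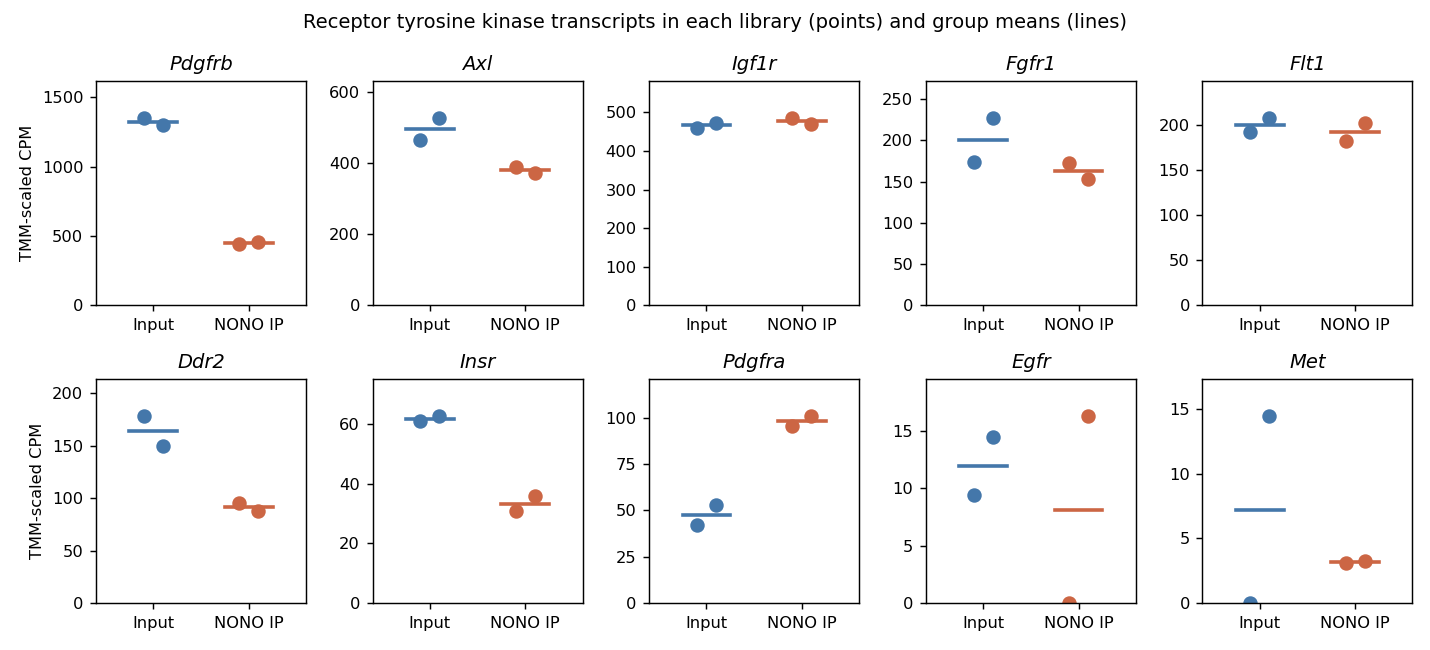
Level of each receptor gene in each library in TMM-scaled CPM, on a linear axis that starts at 0 and differs between panels; points are single libraries and lines are means of 2. Pdgfrb is far lower in both NONO IP libraries, Pdgfra is higher in both, and the points of Igf1r and Flt1 overlap between the groups.

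Pdgfrb, the receptor for PDGF-BB that marks pericytes and smooth muscle cells as well as fibroblasts, had the most reads of the 10. It was counted 287 and 269 times in input and 144 and 139 times in NONO IP. Its level was 1322 ± 35.4 CPM in the inputs and 448 ± 5.79 CPM in the NONO IP (SD, n = 2). The gap between the groups was many times the spread within either. In the edgeR fit it had a log2 fold change of −1.56 (SE 0.11, adjusted p = 3.51e-09). Only 9.08% of all tested genes had a lower value.

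Pdgfra, the receptor that binds all PDGF forms except the DD dimer and a common marker of resident fibroblasts, ran the other way. It was counted 9 and 11 times in input and 31 and 31 times in NONO IP, or 47.7 ± 7.63 and 98.3 ± 3.72 CPM (SD, n = 2). Each NONO IP library was above each input. By edgeR it had a log2 fold change of 1.04 (SE 0.34, adjusted p = 0.0162), a value that 74.4% of tested genes did not reach. Only 1 input reached the count filter's cutoff of 38.9 CPM (unscaled), so Pdgfra entered the test through its NONO IP reads. Such entry favours genes that are higher in the NONO IP. The call ended without Input replicate 1 (log2 fold change 0.82, adjusted p = 0.131), with an offset for gene length (0.77, adjusted p = 0.0761), with the DESeq2 Wald test (1.05, adjusted p = 0.181) and on the deposited RPKM scale (0.31, adjusted p = 0.419).

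Because both PDGF receptor genes were counted in the same libraries, their ratio does not depend on how libraries are scaled. The inputs held 31.9 and 24.5 reads of Pdgfrb for each read of Pdgfra, and the NONO IP libraries held 4.65 and 4.48. The ratio of Pdgfra to Pdgfrb was thus 6.09-fold larger in the NONO IP (exact conditional 95% interval 3.54 to 10.9 on summed reads). This interval covers counting error only, and the pair was singled out after its values were seen.

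Of the insulin-type receptors, Igf1r transmits IGF signals for growth and survival and Insr transmits those of insulin. Igf1r was counted 98 and 98 times in input and 157 and 144 times in NONO IP, or 466 ± 8.86 and 477 ± 11.1 CPM (SD, n = 2). The 2 groups overlapped on this scale. The edgeR fit gave it a log2 fold change of 0.03 (SE 0.14, adjusted p = 0.856), and the ratio of NONO IP to input from summed reads was 1.02, with an exact conditional 95% interval of 0.851 to 1.23 for counting error. Insr was counted 13 and 13 times in input and 10 and 11 times in NONO IP, or 61.9 ± 1.18 and 33.3 ± 3.50 CPM. Its NONO IP libraries were both below the inputs, but at these depths the log2 fold change of −0.89 (SE 0.40) did not pass the test (edgeR adjusted p = 0.0654). Insr reached the filter's cutoff in 3 libraries, both inputs among them, and so entered the test with the help of its input reads. The inputs held 754 reads of Igf1r per 100 of Insr in both libraries, and the NONO IP held 1570 and 1309. That ratio was 1.90-fold larger in the NONO IP, with an exact conditional 95% interval of 0.997 to 3.66 that includes no difference.

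Axl, the receptor for the vitamin K-dependent ligand GAS6, was counted 99 and 109 times in input and 126 and 114 times in NONO IP. After scaling this was 495 ± 43.1 and 380 ± 12.5 CPM (SD, n = 2), with both NONO IP libraries below both inputs. With edgeR it showed a log2 fold change of −0.38 (SE 0.14, adjusted p = 0.0315), the smallest of the 4 called. The sign turned when library totals replaced TMM (0.05, adjusted p = 0.786), a scale on which the median tested gene lay at 0.45. The call also ended without Input replicate 2 (adjusted p = 0.204) and without either NONO IP library (adjusted p = 0.0965 without replicate 1 and 0.159 without replicate 2). It ended as well with the DESeq2 Wald test (adjusted p = 0.250), with no count filter (0.658) and with TMM computed without rRNA, small nuclear and nucleolar RNA and mitochondrial genes (0.0615). Its ligand gene Gas6 was among the more abundant ligand genes, with 587 and 551 input reads and 426 and 425 in the NONO IP, and fell as well (−1.005, SE 0.09, adjusted p = 3.21e-08).

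Ddr2, the collagen receptor, was counted 38 and 31 times in input and 31 and 27 times in NONO IP, or 164 ± 20.4 and 91.8 ± 5.48 CPM (SD, n = 2). Both NONO IP libraries lay below both inputs. In edgeR it had a log2 fold change of −0.83 (SE 0.26, adjusted p = 0.0117). The call ended without Input replicate 1 (−0.77, adjusted p = 0.0649), without NONO IP replicate 2 (−0.72, adjusted p = 0.0640) with library totals (−0.40, adjusted p = 0.198), with the DESeq2 Wald test (−0.84, adjusted p = 0.147) and with no count filter (−0.62, adjusted p = 0.171). Ddr1, the other discoidin receptor gene, named after its values were seen, was counted 72 and 61 times in input and 141 and 147 times in NONO IP. It rose by 0.53 (SE 0.15, edgeR adjusted p = 0.00788), so by this fit the 2 collagen receptor genes were called in opposite directions. The call of Ddr1 as higher ended with an offset for gene length, with the DESeq2 Wald test and on the deposited RPKM scale.

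Fgfr1, the main FGF receptor of mesenchymal cells, was counted 37 and 47 times in input and 56 and 47 times in NONO IP, or 200.2 ± 37.4 and 163 ± 14.0 CPM (SD, n = 2). Relative to their mean, the inputs differed from each other more than for any other tested receptor gene, and edgeR gave it a log2 fold change of −0.29 (SE 0.23, adjusted p = 0.279). The exact conditional 95% interval of its ratio ran from 0.606 to 1.10. Its sign turned with library totals (0.14, adjusted p = 0.626).

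Flt1, the VEGF receptor best known from endothelial cells, was counted 41 and 43 times in input and 59 and 62 times in NONO IP, or 199.9 ± 10.5 and 192 ± 14.0 CPM (SD, n = 2). The groups overlapped, and edgeR gave it a log2 fold change of −0.06 (SE 0.21, adjusted p = 0.826), with an interval of the ratio from 0.720 to 1.28. Of the 10 listed endothelial markers, Pecam1, Cdh5, Kdr, Tie1 and Emcn were not among the listed genes, and Tek, Vwf and Erg had 1, 1 and 4 input reads. Flt1 with 84 and Eng with 138 gave nearly all of the 228 endothelial list reads in the inputs. The summed level of that list was 516 to 568 CPM in the inputs and 392 to 397 CPM in the NONO IP. These levels compare precipitated RNA with input RNA, so the lower value is not a count of cells. Precipitation, knockdown, fewer cells of a type and less RNA per cell cannot be told apart here.

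Egfr and Met, the receptors for EGF-type ligands and for hepatocyte growth factor, had few reads. Egfr was counted 2 and 3 times in input and 0 and 5 times in NONO IP, and Met had 0 and 3 against 1 and 1. The ratio of NONO IP to input was 0.666 for Egfr (exact conditional 95% interval 0.153 to 2.89) and 0.444 for Met (0.0371 to 3.88), so that no difference was detectable at this depth in either direction.

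**Figure D2:**
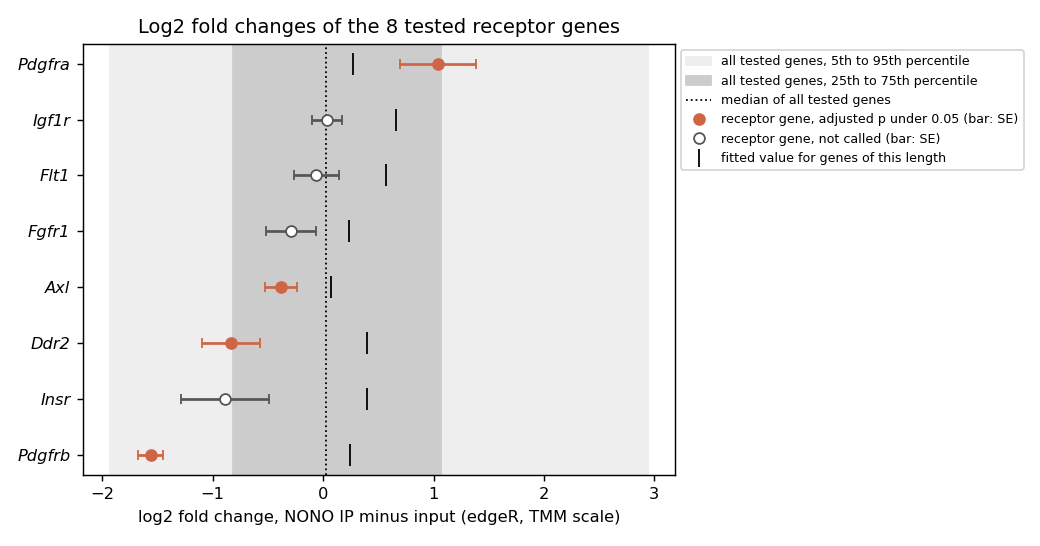
Log2 fold change of NONO IP minus input (x axis) for the 8 tested receptor genes, with SE bars, over bands that span the 5th to 95th and 25th to 75th percentiles of all tested genes. Pdgfrb at −1.56 lies left of the inner band, whose bounds are −0.81 and 1.07, and every receptor gene but Pdgfra lies left of the tick that gives the fitted value for genes of its length. With these fitted values as an offset, the median of all tested genes lay at −0.11.

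Both NONO IP libraries lay below both inputs in TMM-scaled CPM for 5 of the 8 tested receptor genes (Pdgfrb, Insr, Ddr2, Axl and Fgfr1), above for 1 (Pdgfra), and overlapped for 2 (Igf1r and Flt1). Among all tested genes 37.3% had both NONO IP libraries below and 40.6% had both above. Per length and on the authors' RPKM scale, 7 of the 8 were below and Pdgfra was above, but on that scale 56.0% of all tested genes were below and 25.6% above. The RPKM values of the NONO IP were divided by a library total 2.38-fold that of the inputs, so this unit places most genes lower there.

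The order of the receptor genes by level per length, in RPKM, changed at the top. In the inputs Pdgfrb led with 139.28 and 135.33, followed by Axl with 68.25 and 77.9, Fgfr1 with 19.52 and 25.71 and Igf1r with 18.52 and 19.2, and none of these neighbours overlapped. In the NONO IP Axl led with 35.47 and 35.38, ahead of Pdgfrb with 28.54 and 30.37. Igf1r, with 12.11 and 12.25, came just ahead of Fgfr1, with 12.07 and 11.17, so that this pair too had changed places. In the inputs as in the NONO IP, the margin between this pair was smaller than the spread of Fgfr1. Further down, Ddr2 and Flt1 overlapped in the inputs (8.99 to 10.64 and 8.76 to 9.53), as did Insr and Pdgfra (3.62 to 3.75 and 3.09 to 3.91). In the NONO IP, Pdgfra at 4.34 and 4.79 stood above both Ddr2 (3.40 and 3.54) and Insr (1.14 and 1.38). Egfr and Met were last in both groups and overlapped with each other.

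The same shift can be read from the makeup of the receptor reads within each library, which needs no scaling between libraries. The 10 genes together held 624 and 627 input reads against 615 and 581 from the NONO IP, or 2930 and 3024 against 1898 and 1892 TMM-scaled CPM. Pdgfrb made up 46.0% (95% Wilson interval 42.1 to 49.9) and 42.9% (39.1 to 46.8) of these input reads, against 23.4% (20.2 to 26.9) and 23.9% (20.6 to 27.6) in the NONO IP. Igf1r went from 15.7% (13.1 to 18.8) and 15.6% (13.0 to 18.7) to 25.5% (22.2 to 29.1) and 24.8% (21.4 to 28.5). Pdgfra went from 1.44% and 1.75% to 5.04% and 5.34%. Since shares sum to a whole, the lower share of Pdgfrb raises those of the others.

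**Figure D3:**
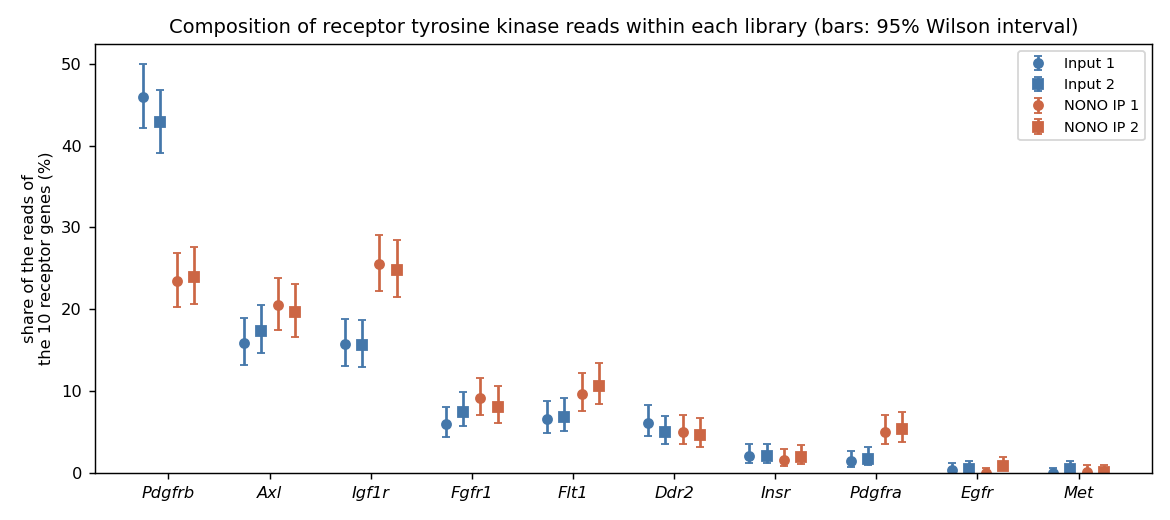
Share of the reads of the 10 receptor genes taken by each gene (y axis, percent) in each library, with 95% Wilson intervals for counting error. The share of Pdgfrb is 46.0% and 42.9% in input and 23.4% and 23.9% in NONO IP, while Igf1r is the gene with the largest share in both NONO IP libraries.

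Gene length moved with these values. Relative length, taken from counts divided by RPKM, put 7 of the 8 tested receptor genes above the median length of the tested genes, with Igf1r longer than 93.0% and Flt1 longer than 90.4% of them, and Axl, the exception, longer than 37.3%. Longer genes tended to be higher in the NONO IP, and the fitted log2 fold change for genes of the receptors' lengths ran from 0.08 for Axl to 0.66 for Igf1r. Against this trend 7 of 8 receptor genes were lower than genes of their length, and only Pdgfra was higher. Of all tested genes too, more lay below the trend than above, with a median of −0.11 when the trend was an offset. With the trend as an offset, Pdgfrb (−1.81), Insr (−1.28), Ddr2 (−1.23), Flt1 (−0.63, adjusted p = 0.0181), Igf1r (−0.63, adjusted p = 0.00109) and Axl (−0.46) were called lower, which is 6 of 8 beside 27.5% of all tested genes, and none was called higher (1 at an unadjusted p under 0.05), beside 22.0%. The part of length in the differences was not tested further.

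**Figure D4:**
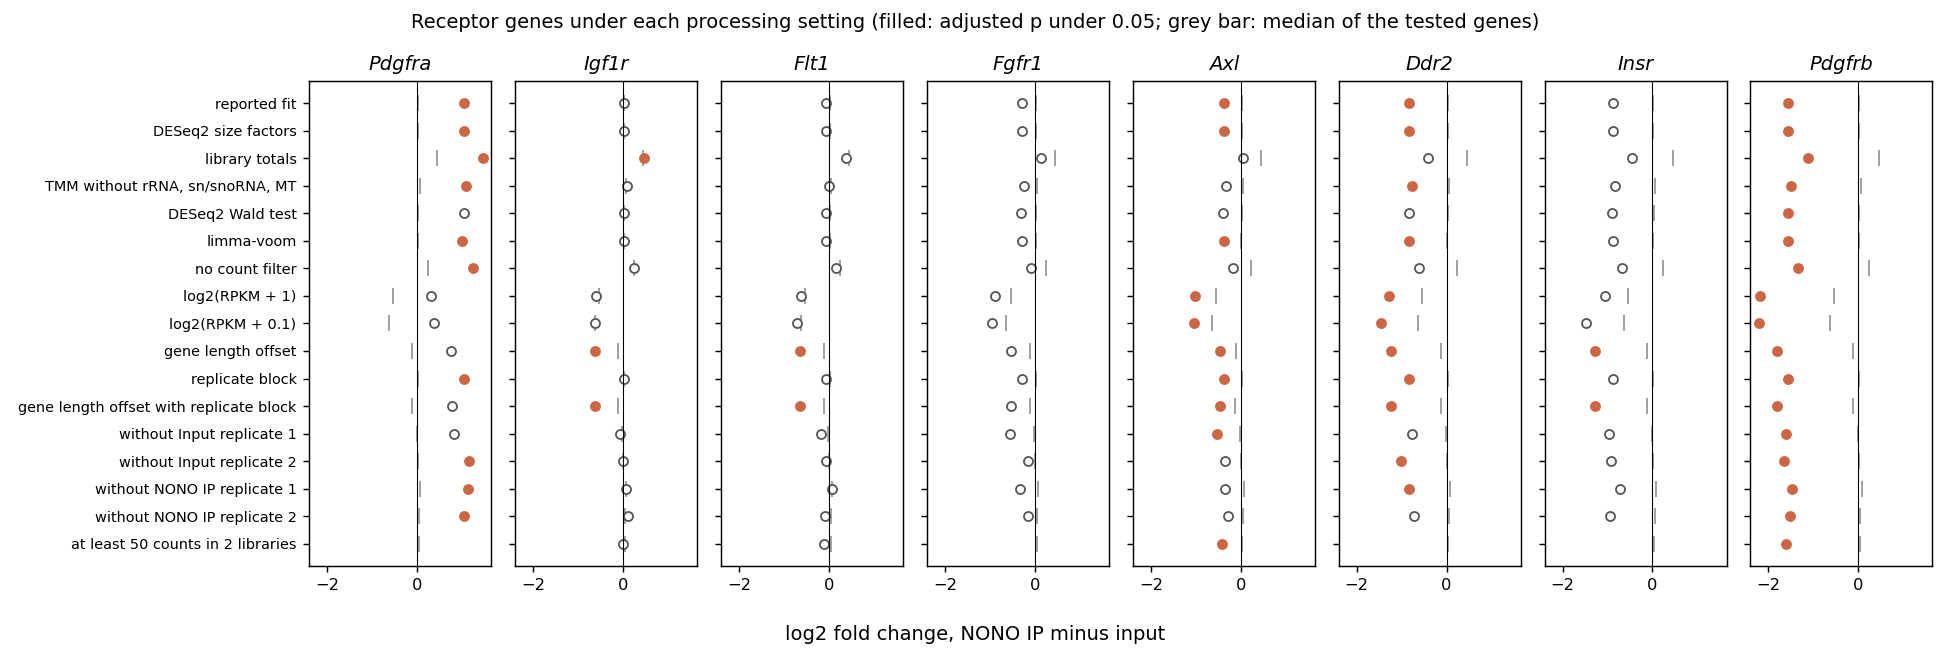
Log2 fold change of each tested receptor gene (x axis) under the reported fit and each alternative (rows); filled points have an adjusted p under 0.05 and grey bars mark the median of the tested genes under that setting. Pdgfrb is called lower in every row, while Igf1r lies between −0.05 and 0.06 from the grey bar except with the length offset (−0.51 without and with the replicate block).

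The reads of 4 receptor genes may include those of genes that overlap them in the RefSeq annotation of the GRCr8 assembly (Fgfr1, Igf1r, Insr and Flt1). Of the 8 overlapping genes, only Pgpep1l, at Igf1r, was among the listed genes, with 0 reads in both inputs and 4 in both NONO IP libraries. The strand setting of the counting is not given in the sources used here.

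Genes whose levels over the 4 libraries were nearest to those of Pdgfrb and Pdgfra, in each direction the called receptor gene with the most reads, were found by Euclidean distance in log2 CPM among 2731 tested genes. Nearest to Pdgfrb were Vcl, encoding the focal adhesion protein vinculin (distance 0.25, counted 274 and 278 times in input and 158 and 159 times in NONO IP), Sptbn1, a spectrin gene (0.26), and Acta2, smooth muscle actin (0.30). Nearest to Pdgfra were the transcription factor genes Maf (0.15, counted 8 and 11 times in input and 30 and 31 times in NONO IP), Zfp219 (0.20) and Tcf7l1 (0.22). The distance weighs level as well as change, and near genes share depth and libraries with the receptor genes. The smooth muscle and pericyte list, which holds Pdgfrb and Acta2, summed to 4437 to 4606 CPM in the inputs and 1979 to 1981 CPM in the NONO IP. Of its 1901 input reads Pdgfrb held 556 and Acta2 560, so this sum largely repeats these 2 genes.

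The rest of the receptor pathway was followed through 9 lists of 233 genes, of which 208 had a read and 97 had enough for the test. Of these 34 were higher and 19 lower, a called share of 54.6% that is close to the 56.7% of all tested genes. Of the 34 higher genes, 21 did not reach the filter's cutoff in both inputs and so entered the test with the help of their NONO IP reads. Some of the 19 lower genes likewise entered with the help of their input reads. Counts and medians of the lists rest in part on such entry. Summed levels over all members with a read are therefore given beside them. Over all 9 lists these sums were 18920 and 19112 CPM in the inputs and 15626 and 15474 CPM in the NONO IP.

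Among 48 other receptor tyrosine kinase genes, 33 had a read, 16 of them under 10 reads over the 4 libraries, and 9 were tested. Of the 9, 3 were called higher and 3 lower, a called share of 66.7% beside 56.7% of all tested genes. Ror2 and Ror1, Wnt5a receptors, rose by 1.41 (SE 0.28, edgeR adjusted p = 0.000391) and 2.43 (SE 0.49, adjusted p = 0.000480), as did Ddr1. Ror2 was counted 15 and 14 times in input and 64 and 52 times in NONO IP, while Ror1 had only 4 and 2 against 24 and 26. Neither input reached the filter's cutoff for Ror1, so it entered the test through its NONO IP reads. Ptk7, a pseudokinase receptor of planar cell polarity, changed by −1.42 (SE 0.14, adjusted p = 2.96e-07), from 175 and 146 to 86 and 94 reads. Ephb4, an ephrin-B2 receptor, and Epha2 (named after its value was seen) changed by −1.21 and −1.07. The list summed to 1770 to 1915 CPM in the inputs and 1553 to 1564 CPM in the NONO IP.

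Of 9 tested ligand genes 5 rose and 1, Gas6, fell, a called share of 66.7%; 29.8% of all tested genes rose and 26.9% fell. Of the 5, 2 entered the test with the help of their NONO IP reads. The 5 became 2 when Input replicate 2 was left out, 3 when NONO IP replicate 1 was, 2 with the DESeq2 Wald test and 1 on the RPKM scales. Fgf2, basic fibroblast growth factor, was counted 4 and 4 times in input and 90 and 62 times in NONO IP (a log2 fold change of 3.63, SE 0.38, edgeR adjusted p = 3.79e-07). Nrg1, neuregulin 1, rose from 35 and 33 to 112 and 110 reads (1.12, SE 0.19, adjusted p = 7.87e-05), a call that ended with the length offset (0.13, adjusted p = 0.594). Vegfa (0.62), Pdgfa (0.65) and Igf2 (1.10), named after their values were seen, rose by less or with fewer reads. Their edgeR adjusted p-values were 0.00841, 0.0373 and 0.0495, the last just under the threshold. Igf2 went from 8 and 4 to 24 and 15 reads, and neither input reached the filter's cutoff. Vegfa is a ligand of Flt1, Pdgfa of Pdgfra and Igf2 of Igf1r. Other ligand genes of these receptors, with too few reads for the test and named after their values were seen, did not all rise. Igf1 (Igf1r) went from 14 and 8 to 9 and 5 reads, and Pgf (Flt1) from 7 and 3 to 1 and 2. Their ratios of NONO IP to input were 0.424 and 0.200 (exact conditional intervals 0.201 to 0.866 and 0.0353 to 0.776). The intervals of Pdgfb (ratio 2.66), Pdgfc (0.499) and Vegfb (0.799) included no difference. Summed over all 27 ligand genes with a read, the level was lower in the NONO IP, at 2873 to 2911 CPM against 3622 to 3864, since Gas6 held most of it in the inputs.

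Coreceptors and ligand-binding proteins at the cell surface or in the matrix were called in 1 direction by edgeR, with 9 of 16 tested genes lower and 0 higher (median −0.84). That is a called share of 56.2%, beside 56.7% of all tested genes (26.9% lower and 29.8% higher). Some of the 9 did not reach the filter's cutoff in both NONO IP libraries and so entered the test with the help of their input reads. At an unadjusted p under 0.05 edgeR also had 0 higher, as did the DESeq2 Wald test and limma-voom after adjustment, while the length offset, library totals and the fit without NONO IP replicate 2 each gave 1. The 9 lower became 6 with library totals, the Wald test and no count filter. They became 5 with at least 50 counts in 2 libraries, where only 6 were tested. Lrp1, an endocytic receptor that associates with the PDGF receptor beta protein, dropped from 886 and 855 to 320 and 399 reads (−1.86, SE 0.10, edgeR adjusted p = 8.18e-11). Gpc4, a heparan sulfate proteoglycan, changed by −0.96 (SE 0.16, adjusted p = 6.03e-05). Their summed level was 7779 to 7789 CPM in the inputs and 3630 to 3678 CPM in the NONO IP.

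Among the cytoplasmic transducers more genes were called higher than lower, but most of those called higher entered the test with the help of their NONO IP reads: 5 of 8 in the adaptor list, 5 of 8 in the PI3K list and 4 of 5 in the RAS list. Their called shares were 53.3%, 64.3% and 62.5%, beside 56.7% of all tested genes (29.8% higher and 26.9% lower). Of 15 adaptor and substrate genes tested, 8 rose and 0 fell (median 1.01; 1 lower at an unadjusted p under 0.05, and after adjustment 1 lower by limma-voom, 0 by the DESeq2 Wald test and 2 with the length offset and on the RPKM scales). Without Input replicate 1 these counts were 5 higher and 1 lower, without NONO IP replicate 2 they were 8 and 1, and the Wald test and at least 50 counts each left 2 higher. With at least 50 counts in 2 libraries only 2 adaptor and substrate genes were tested, and both were called higher. The 8 called higher in the reported fit were led by Rasa1, a RAS GTPase-activating protein (19 and 12 to 65 and 75 reads, 1.58, SE 0.28, edgeR adjusted p = 0.000119), and Fyn, a Src-family kinase gene (1.72). Of 14 PI3K, AKT and mTOR genes 8 rose and 1 fell (median 1.02), with 7 to 8 higher and 1 to 2 lower as each library was left out, 5 higher by the Wald test and 1 on the RPKM scales. Pik3ca, the catalytic subunit p110 alpha, went from 7 and 5 to 47 and 46 reads (2.35, SE 0.35, adjusted p = 2.93e-05), and Phlpp1, an AKT phosphatase, changed by 2.31. Akt1 was the 1 that fell, from 46 and 42 to 37 and 28 reads (−1.02, SE 0.24, adjusted p = 0.00191).

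Of 8 RAS, RAF and MAP kinase genes tested, 5 rose and 0 fell (median 1.33; 0 lower at an unadjusted p under 0.05, 0 by limma-voom and the Wald test, and 1 with the length offset). The 5 became 2 when Input replicate 1 was left out, 3 when NONO IP replicate 1 was, and 2 by the Wald test. Those that rose included Ksr1, a RAF scaffold (3.34, SE 0.46, edgeR adjusted p = 9.52e-06), Rras2 (2.08) and, named after their values were seen, Rap1b and Braf (1.32 and 1.34). Of the 4 named, Rras2 alone reached the filter's cutoff in both inputs, with 10 and 12 reads there, against 91 and 50 in the NONO IP. Summed over all members with a read, the adaptor list went from 1080 and 1423 CPM to 1796 and 1866, the PI3K list from 1122 and 1114 to 1836 and 1732, and the RAS list from 521 and 497 to 981 and 856. In each of these 3 lists both NONO IP libraries were above both inputs.

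Inhibitor and phosphatase genes held 4 that rose and 1 that fell among 14 tested (median 0.56). That is a called share of 35.7%, beside 56.7% of all tested genes (29.8% higher and 26.9% lower). Of the 4 that rose, 3 entered the test with the help of their NONO IP reads. Summed over all members with a read, this list went from 883 and 1153 CPM in the inputs to 1561 and 1498 in the NONO IP. Spred3, an inhibitor of RAS-MAP kinase signalling, was counted 1 and 3 times in input and 76 and 63 times in NONO IP (4.46, SE 0.43, edgeR adjusted p = 1.59e-07). Socs5 changed by 1.06, and Dusp10 and Ptprj, named after their values were seen, by 1.90 and 1.79. Ptprf, a receptor phosphatase gene, fell (−1.01, SE 0.36, adjusted p = 0.0251). That call ended without Input replicate 1 (adjusted p = 0.0584), without either NONO IP library (0.127 and 0.0779), with library totals (0.185), with the Wald test (0.220) and with no count filter (0.214), and at least 50 counts left Ptprf out. In the JAK and STAT list, of 3 tested, Stat5b rose (1.50) and Stat3 fell (−0.97) by edgeR, a called share of 66.7% beside 56.7% of all tested genes. Stat5b was counted 7 and 6 times in input and 34 and 22 times in NONO IP. Neither input reached the filter's cutoff for Stat5b, so it entered the test through its NONO IP reads. Both calls ended without NONO IP replicate 1 (adjusted p = 0.0522 and 0.0612) and with the Wald test (0.0850 and 0.0719). That of Stat5b also ended on the RPKM scales (0.169 on both), and that of Stat3 with library totals (0.0882) and with no count filter (0.0551). The JAK and STAT list summed to 394 and 391 CPM in the inputs and 259 and 290 CPM in the NONO IP. Among 9 target genes of growth factor signalling none rose by edgeR and 3 fell. That is a called share of 33.3%, beside 56.7% of all tested genes (29.8% higher and 26.9% lower). The target gene list summed to 1352 and 1365 CPM in the inputs and 1077 and 1139 CPM in the NONO IP. At an unadjusted p under 0.05 edgeR had 0 higher, as did limma-voom and the Wald test after adjustment. Library totals gave 3 higher, the fit without NONO IP replicate 1 gave 1, and the length offset gave 1 at an unadjusted p under 0.05. The 3 lower became 1 without either input and with the Wald test. They were Junb (−1.05, SE 0.19, adjusted p = 0.000151), Egr1 (−2.02, SE 0.55) and, named after its value was seen, Jun (−0.62). Of these, Egr1 entered the test with the help of its input reads. Egr1 was counted 13 and 12 times in input and 1 and 8 times in NONO IP, and its call ended without NONO IP replicate 1 (−1.12, adjusted p = 0.135) and without either input (adjusted p = 0.0766 and 0.0540), with the Wald test (0.0787), on the RPKM scales (0.0709 and 0.126) and when the length offset was combined with the replicate block (0.0546).

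**Figure D5:**
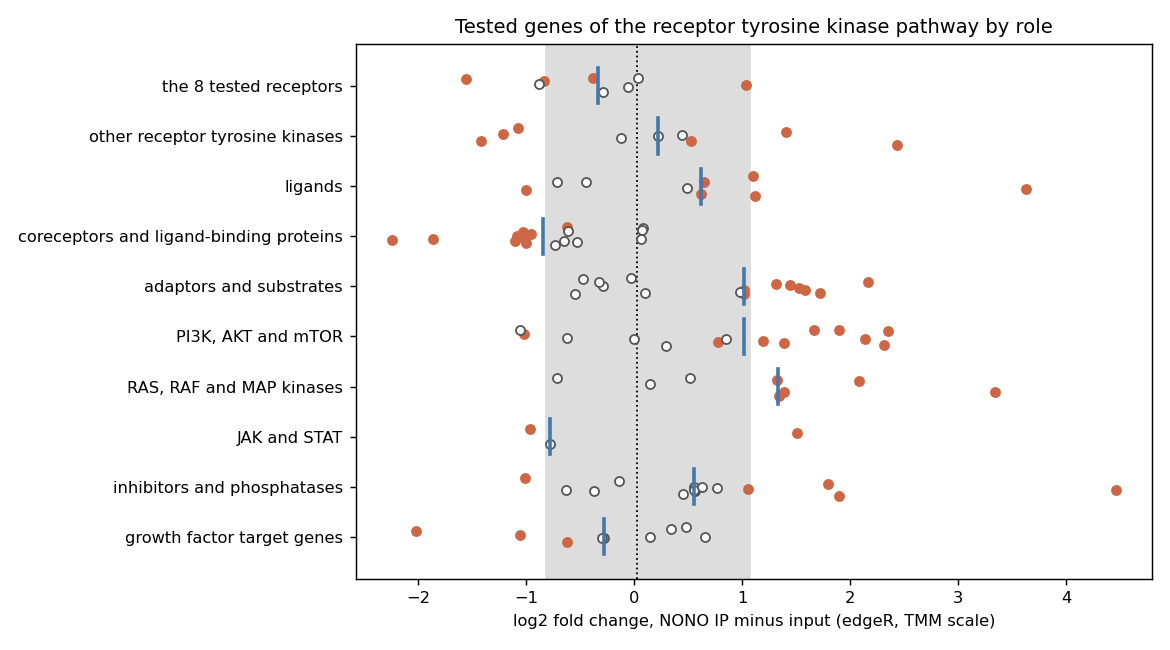
Log2 fold change (x axis) of each tested gene of the receptor pathway, by role; filled points passed an adjusted p of 0.05, blue lines are list medians, the grey band spans the 25th to 75th percentiles of all tested genes and the dotted line is their median. Coreceptors lie mostly to the left (9 lower, 0 higher), and some of the 9 entered the test with the help of their input reads. Adaptors, PI3K and RAS genes lie mostly to the right (8, 8 and 5 higher). Most genes of the latter 3 lists that were called higher entered the test with the help of their NONO IP reads.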

How the data were processed

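Polyadenylated RNA libraries were made with a stranded kit from 2 input and 2 NONO IP samples, per the labels' protocols; groups and replicate numbers come from the titles. The authors deposited raw counts, which are whole numbers. The authors also deposited RPKM values (reads scaled by gene length and by a library total that is not stated). The submitters' processing notes name HISAT2, HOMER and the build mRatBN7.2, with no role or version; the counting program is not given in the sources used here.

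Counts of NONO IP and input were compared with edgeR 4.0.16 (R 4.3.3; quasi-likelihood, TMM, filterByExpr with a minimum count of 10), with Benjamini-Hochberg adjustment over 2920 genes at 0.05. SE is the log2 fold change over the root of F. Exact conditional and Wilson intervals are at 95% and cover counting error only, since reads carry no molecular identifiers. Relative length came from counts over RPKM, scaled on 461 genes with 30 or more reads in each library; the length offset is a loess fit (span 0.5). On data simulated for this comparison, over 2823 genes, edgeR recovered 86% of 2-fold and 100% of 4-fold changes. There 100 genes were changed at each size, far fewer than were called in these data. They were drawn from genes with more reads, so these shares need not hold for tested genes with few reads. RefSeq symbols (GRCr8) matched 91.8% of genes and were used only for names and overlaps.

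Genes named are the 10 receptor genes, Nono, up to 2 per pathway list and direction with the smallest adjusted p, and 3 nearest to a called receptor gene in each direction; nearness uses log2 CPM with a prior count of 2. Members and lists were chosen with earlier results of these data known. Alternatives were other scalings, filters, tests (DESeq2 1.42.0, limma 3.58.1), limma on log2 RPKM values with pseudocounts of 1 and 0.1 (RPKM of 1 or more in 2 libraries), the length offset, the replicate block and leaving out each library. One gene of the pathway lists is not reported here by name.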

Additional observations from a re-analysis of the deposited data

How the results depend on the processing

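Pdgfrb fell under all 16 alternatives (−2.22 to −1.13, adjusted p at most 0.0105). Pdgfra kept its direction in all 15 that tested it (0.31 to 1.47) and lost its call in 6; Ddr2 did so in 15 (−1.47 to −0.40), losing its call in 5. Insr kept its direction in 15 (−1.48 to −0.46) and was called with the length offset alone and with the block. Fgfr1, Axl and Flt1 turned to 0.14, 0.051 and 0.37 with library totals, where the median gene moved by 0.43, and Igf1r was called there (0.46, adjusted p = 0.00752). Flt1 also turned to 0.16 with no count filter and ranged from −0.18 to 0.075 as each library was left out. Igf1r turned to −0.0081 with at least 50 counts in 2 libraries, to −0.59 and −0.63 on the RPKM scales with pseudocounts of 1 and 0.1, where the median gene moved by −0.56 and −0.65, to −0.63 with the length offset and −0.63 with offset and replicate block together, and ranged from −0.055 to 0.11 as each library was left out.

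The 1 receptor gene called higher became 2 with library totals and 0 with the DESeq2 Wald test, with at least 50 counts, on both RPKM scales and with the length offset, without and with the replicate block. With at least 50 counts only 4 receptor genes were tested, and Pdgfra was not among them. The 3 called lower became 1 with library totals, with the Wald test and with no count filter, and 6 with the length offset, without and with the block. Leaving out each library gave 0 to 1 higher and 1 to 2 lower. By the Wald test 453 of all genes were higher and 423 lower, and 17 and 10 of the pathway genes. With at least 50 counts in 2 libraries these were 254, 247, 14 and 8, over 600 genes tested, of which 25 were pathway genes. On the RPKM scales 393 and 348 genes were higher, of which 6 and 4 were pathway genes, and 1425 and 1143 lower. Library totals left 466 genes lower, 12 of them pathway genes, as did no count filter for pathway genes (12). Higher genes made up 52.6% of calls as reported, 71.9% with library totals, 64.5% with no count filter, 21.6% and 23.3% on the RPKM scales and 44.4% with the length offset. Leaving out each library gave 679 to 810 higher and 615 to 705 lower genes, and 26 to 33 and 16 to 18 among pathway genes.

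Without single libraries the ratio of NONO IP to input was 0 to 1.37 for Egfr, with 0 where NONO IP replicate 2 was left out and the other held no read, and 0.219 to 0.456 for Met; without Input replicate 2 the ratio of Met could not be formed, since the inputs then held no read. The 23 pathway genes named by rule kept their direction in all 358 fits that tested them and lost the call in 38. The replicate block alone gave 1 receptor gene higher and 3 lower, 870 and 806 over all genes and 34 and 19 pathway genes; deviations of same-numbered libraries correlated at 0.0508 across genes, and with 2 pairs the numbers were not taken as a pairing. In data simulated over 8737 genes, limma on log2(RPKM + 1) recovered 0% of 2-fold and 4% of 4-fold changes, and 76.5% of its 17 calls were false. Over 2823 genes the Wald test recovered 27% and 86%. The simulation changed 100 genes by each size, drawn from genes with more reads, and put no shift in RPKM between the groups. The data differ from this, so the simulation cannot settle how calls missing in those settings should be read.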
